A study of Homo sapiens with 8 samples.

Results

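The 10 genes described here belong to the JAK-STAT signaling route in human CAKI1 renal tumor cells: the interleukin-21 receptor *IL21R*, the kinases *JAK1*, *JAK2* and *TYK2*, the transcription factor *STAT3*, the feedback inhibitors *SOCS2* and *SOCS3*, and the kinases *PIM1*, *PIM2* and *PIM3*. They were taken by gene symbol from a table of 16782 genes, and each symbol had 1 entry. The set was chosen by levels and differences already known from these same samples, where *IL21R* and *PIM1* were higher with hLcn-2. The contrast between hLcn-2 and control is therefore given for the 10 genes as a description, with no p-value of their own. Calls from the fits over all genes are given once, beside their background, and support nothing for these genes.

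CAKI1 is an established human clear cell renal carcinoma line. All cells were serum starved for 24 h. The hLcn-2 group then received 5 µg/ml recombinant human lipocalin-2 loaded with iron for 24 h, and the control group was left unstimulated. Each group held 4 samples, numbered 1 to 4 in both, and the mRNA expression was measured by 3′ RNAseq, which reads the end of each transcript. The results hold for 1 cell line, and nothing in the labels says whether the samples were separate cultures. The p-values below therefore measure the spread between these samples, which may be technical.

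Libraries held between 1501563 reads (control 4) and 13953090 reads (control 1), a 9.29-fold range, with medians of 9216758.5 reads in control and 5796022 reads in hLcn-2. Values are normalised counts, reads scaled to a library size that the authors adjusted. A single read was worth 0.0704 in control 1 and 0.658 in control 4. Of 20 renal markers, 17 were measured and 12 of these reached 10 in every sample, with *PAX8*, a renal lineage factor, between 201 and 245. *PAX2*, *CDH1*, *MME*, *GGT1* and *CUBN* did not reach 10 in every sample, with *PAX2* at 1.32 to 5.29 and *CUBN* at 0 to 3.29. *KRT19*, *CA9* and *LRP2* were not among those measured. The summed level of the measured renal markers was 4453 to 5088 in control and 4708 to 5373 in hLcn-2. Its largest terms were *VIM*, at 1302 to 2181, and *MET*, at 829 to 1048.5. Of 18 leukocyte markers 5 were measured, with sums of 19.1 to 26.3 in control and 17.8 to 25.9 in hLcn-2. *ITGAX* made up most of this, at 12.3 to 22.1, and the other 4 stayed at or under 3.29.

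In JAK-STAT signaling a cytokine brings receptor chains together, the JAK kinases bound to these chains phosphorylate each other and the receptor, and STAT proteins docked there are phosphorylated, pair up and enter the nucleus. SOCS genes are among the targets, and their proteins dampen the receptor complex. The PIM serine/threonine kinases are also induced by STATs and act mainly through their amount, as they need no activating phosphorylation by another kinase. *IL21R* works with the common gamma chain and signals through JAK1, JAK3 and chiefly STAT3, and it is best known from B, T and NK lymphocytes.

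*IL21R* mRNA was higher in every hLcn-2 sample than in every control sample. The gene lies on the plus strand of chromosome 16 at 27402174 to 27452042 (GRCh38), with 9 exons. Its normalised counts were 8.17, 9.30, 5.46 and 5.27 in controls 1 to 4, and 17.9, 17.3, 10.4 and 17.2 in hLcn-2 samples 1 to 4. The lowest treated sample was thus above the highest control. Means were 7.05 ± 2.001 in control and 15.7 ± 3.56 in hLcn-2 (SD, n = 4 each), a log2 fold change of 1.06 (SE 0.25) on the log2(normalised count + 1) scale. Within the numbered pairs, hLcn-2 exceeded control by log2 differences of 1.04, 0.83, 0.81 and 1.54. This SE, like every SE given here, is from the fit without pairing and so includes the spread between sample numbers. With the number as a block the SE was 0.17 for *IL21R*, 0.14 for *PIM1* and 0.093 for *STAT3*.

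Between 8 reads (control 4) and 201 reads (hLcn-2 1) gave these *IL21R* values. The 8 reads of control 4 gave a Poisson 95% interval of 2.27 to 10.4 in normalised counts, and the 21 reads of hLcn-2 3 gave 6.42 to 15.8, so these intervals, which cover counting error only, overlapped. The antisense gene *IL21R-AS1* overlaps the last *IL21R* exon at 27448534 to 27452042 and was not analysed here. Neither its ligand gene *IL21* nor the common gamma chain gene *IL2RG* was analysed here. Because RNA came from whole cultures, more expressing cells and more RNA per cell cannot be told apart.

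**Figure D1:**
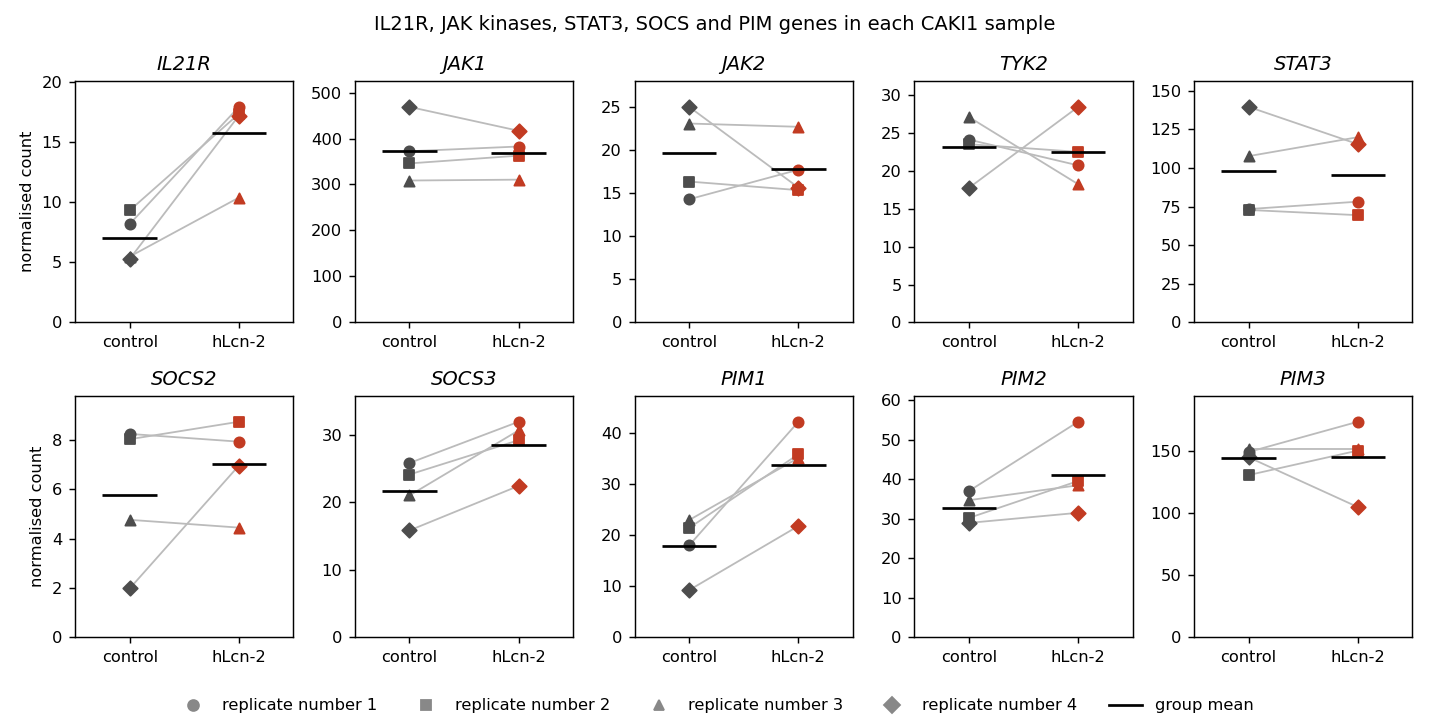
Normalised counts of the 10 genes in the 4 control and 4 hLcn-2 samples, 1 panel per gene, each with a vertical axis from 0; each marker is a sample, grey lines join samples of the same number, and a black line is the group mean. *IL21R* is the panel in which the groups do not overlap, with 10.4 as the lowest hLcn-2 value and 9.30 as the highest control value.

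*JAK1*, *JAK2* and *TYK2* encode 3 of the kinases that cytokine receptors use, and none showed a shift between groups larger than the spread of its samples. *JAK1*, which serves gamma chain, IL-6 family and interferon receptors, was the most abundant of the 10 (chromosome 1, 64833223 to 65067754, minus strand). It measured 372, 346, 309 and 469 in controls 1 to 4 and 383, 363, 311 and 417 in hLcn-2 samples 1 to 4. Both groups covered nearly the same range, with a log2 fold change of -0.013 (SE 0.15). *RAVER2*, which overlaps the last *JAK1* exon on the other strand, stayed between 12.3 and 19.7 in all 8 samples. *LINC01359*, on the same strand as *JAK1*, overlaps an exon other than the last and was not analysed here.

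*JAK2*, the kinase of hormone-type and interferon-gamma receptors, lies on chromosome 9 at 4984390 to 5129948. It measured 14.3, 16.4, 23.1 and 25.02 in control and 17.7, 15.4, 22.7 and 15.7 in hLcn-2, a log2 fold change of -0.12 (SE 0.22). *TYK2*, a kinase of type I interferon and IL-12 family receptors, lies on chromosome 19 at 10350533 to 10380608. It measured 24.2, 23.6, 27.1 and 17.8 in control and 20.8, 22.5, 18.3 and 28.5 in hLcn-2, a log2 fold change of -0.042 (SE 0.19). The pairs of both genes pointed in both directions.

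*STAT3*, the transcription factor that carries most IL-21 and IL-6 family signals, did not separate the groups (chromosome 17, 42313324 to 42388540, minus strand). Its normalised counts were 73.4, 72.8, 107.7 and 139.6 in control and 78.2, 69.4, 120.0 and 115.5 in hLcn-2. Numbers 1 and 2 were low and numbers 3 and 4 high in both groups. Means were 98.4 ± 31.95 and 95.8 ± 25.7 (SD, n = 4 each), with a log2 fold change of -0.024 (SE 0.24).

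Of the inhibitors, *SOCS3*, which blocks JAKs at gp130-type receptors, was higher with hLcn-2 in each of the 4 pairs, while the groups overlapped. The gene lies on chromosome 17 at 78356778 to 78360077. It measured 25.8, 24.1, 21.0 and 15.8 in control and 31.9, 29.2, 30.6 and 22.4 in hLcn-2. The overlap came from hLcn-2 4, which lay below controls 1 and 2. Pair differences were 0.30, 0.27, 0.52 and 0.48, with a log2 fold change of 0.39 (SE 0.19). This was 0.25 without control 4 alone, in the fit without pairing, and 0.36 without pair 4. Here and below, leaving out 1 sample of a pair lets differences between numbers into the value.

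*SOCS2*, an inhibitor of growth hormone signaling, was the least abundant (chromosome 12, 93569814 to 93583487). It measured 8.24, 8.03, 4.76 and 1.98 in control and 7.93, 8.73, 4.44 and 6.96 in hLcn-2. The 1 wide pair difference, 1.42 on the log2 scale, was that of number 4, where control 4 rested on 3 reads with a Poisson 95% interval of 0.407 to 5.77. The log2 fold change of all samples was 0.35 (SE 0.36), and it fell to 0.00024 when control 4 was left out. *SOCS2-AS1*, which overlaps an exon other than the last, stayed between 0.353 and 1.34.

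The PIM kinases phosphorylate regulators of survival, translation and the cell cycle, and the 3 genes behaved unequally. *PIM1* lies on the plus strand of chromosome 6 at 37170152 to 37175428. Its normalised counts were 17.96, 21.4, 22.9 and 9.22 in control and 42.1, 35.8, 35.1 and 21.7 in hLcn-2. Every treated sample except hLcn-2 4 was above every control, and hLcn-2 4 was above its own partner. Means were 17.9 ± 6.13 and 33.7 ± 8.57 (SD, n = 4 each), a log2 fold change of 0.91 (SE 0.28) with pair differences of 1.19, 0.72, 0.59 and 1.15.

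*PIM2*, on chromosome X at 48913182 to 48919024, measured 37.0, 30.2, 34.7 and 29.0 in control and 54.6, 39.6, 38.5 and 31.5 in hLcn-2. It was higher in all 4 pairs, with overlapping groups and a log2 fold change of 0.30 (SE 0.18). This was 0.15 without hLcn-2 1 alone and 0.21 without pair 1. *PIM3*, on chromosome 22 at 49960768 to 49964072, measured 149, 131, 152 and 145 in control and 174, 150, 152 and 105 in hLcn-2. Its pairs pointed in different directions, with 0.22 for number 1 and -0.46 for number 4, and the log2 fold change was -0.011 (SE 0.16).

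**Figure D2:**
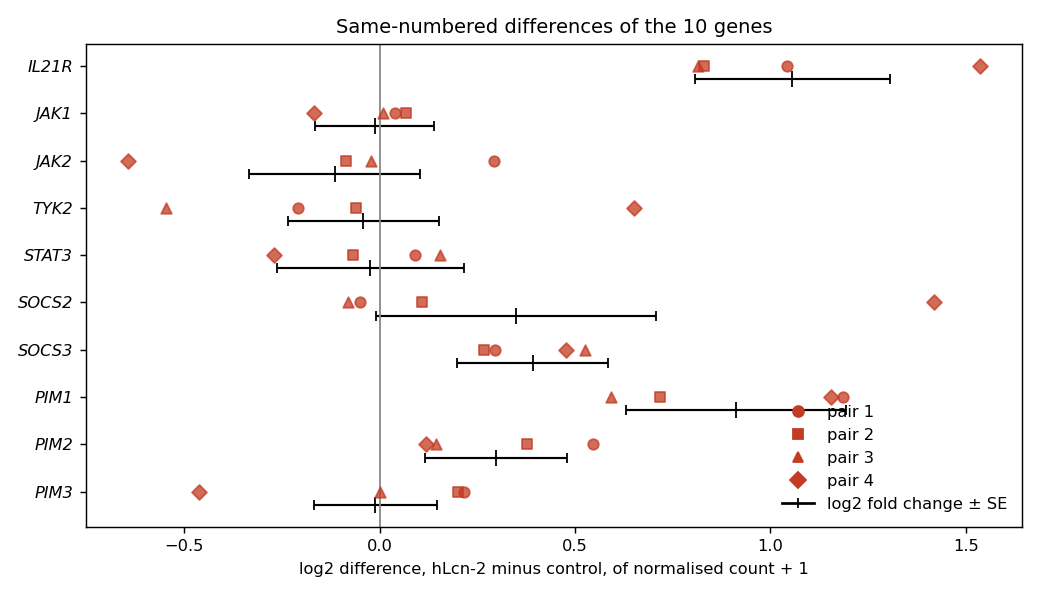
Log2 difference between hLcn-2 and control within each of the 4 numbered pairs for the 10 genes, on the log2(normalised count + 1) scale; each marker is a pair and 0 means equal levels. All 4 pairs lie above 0 for *IL21R*, *SOCS3*, *PIM1* and *PIM2*, and *IL21R* ranges from 0.81 to 1.54.

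The make-up of PIM transcripts differed between groups. *PIM1* gave 8.80%, 11.7%, 10.95% and 5.04% of the summed PIM normalised counts in controls 1 to 4, and 15.6%, 15.9%, 15.6% and 13.8% in hLcn-2 samples 1 to 4. These shares did not overlap, with means of 9.13% ± 3.00 and 15.2% ± 0.967 (SD, n = 4 each). The lowest share, that of control 4, rested on 14 *PIM1* reads. *PIM2* gave 16.8% ± 0.973 in control and 18.7% ± 1.60 in hLcn-2, and *PIM3* gave 74.1% ± 3.42 and 66.1% ± 1.34. The PIM sum was 195 ± 14.1 in control and 220 ± 46.2 in hLcn-2. As the choice of genes used these levels, the shares were not tested.

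**Figure D3:**
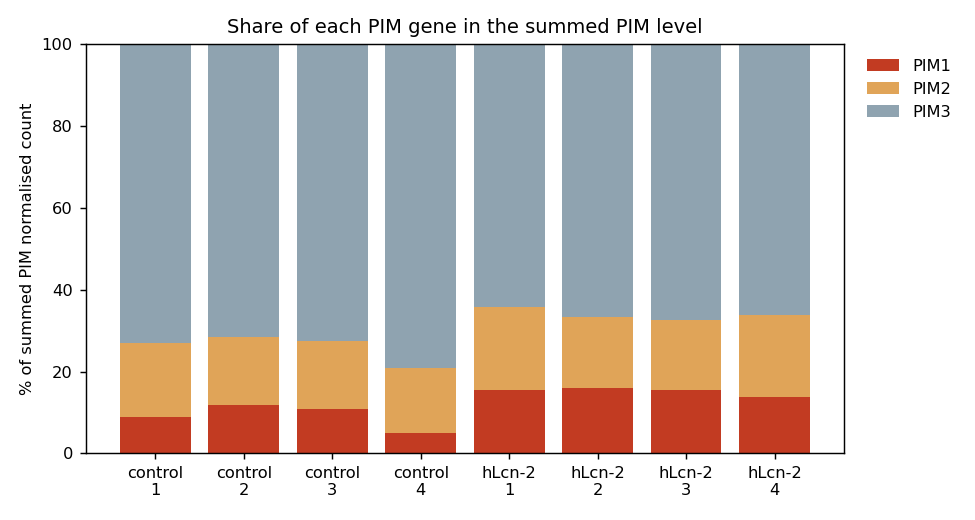
Share of *PIM1*, *PIM2* and *PIM3* in the summed PIM normalised counts of each of the 8 samples, in percent; each bar is a sample and adds up to the whole. The *PIM1* share is 5.04% to 11.7% in control and 13.8% to 15.9% in hLcn-2.

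The members were ordered by level without division by length, as each transcript gives reads from its 3′ end only. Whether these ends are read equally well in each gene was not tested, so the order is approximate. In control the order of mean normalised counts was *JAK1*, *PIM3*, *STAT3*, *PIM2*, *TYK2*, *SOCS3*, *JAK2*, *PIM1*, *IL21R* and *SOCS2*. Sample ranges did not overlap between *JAK1* and *PIM3*, *STAT3* and *PIM2*, and *PIM2* and *TYK2*, while the other neighbours overlapped. With hLcn-2, *PIM1* stood in place 5 instead of place 8, where its range overlapped those of its neighbours *PIM2* and *SOCS3*. The ranges of *IL21R* and *SOCS2*, the last neighbours in both groups, no longer overlapped with hLcn-2.

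Across all 15593 genes tested, limma without pairing called 0 genes between the groups at an adjusted p under 0.05 (0% of genes), and so none of the 10. At an unadjusted p of 0.05, limma passed 355 genes, edgeR 324 and DESeq2 284. With the replicate number as a block, limma called 44 genes (0.282%) and edgeR's quasi-likelihood test 233 (1.49%), each including *IL21R* and *PIM1* among the 10. All hLcn-2 samples lay above all controls for 139 genes (0.891%), *IL21R* among them. The level was higher in all 4 pairs for 1548 genes (9.93%), including *IL21R*, *SOCS3*, *PIM1* and *PIM2*. These shares give the background for values that the choice of the 10 genes also used, and nothing is read from the counts. The blocked limma calls of *IL21R* and *PIM1* were absent when number 1, 2 or 3 was left out, with a pseudocount of 0.1, and with reads thinned to the lowest total.

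Differences between replicate numbers were not themselves used to choose the genes. Their test shares its residual spread with the blocked limma fit that called *IL21R* and *PIM1*. The p-values by number are therefore not fully separate from that choice. In limma's F test of the number, with treatment in the model, 4272 of the 15593 genes differed between numbers at an adjusted p under 0.05 (27.4%), and 3 of the 10 did. *STAT3* had an adjusted p of 0.000925, *PIM1* of 0.00626 and *JAK1* of 0.0148. The share of 3 in 10 lies close to that of all genes. *JAK1* means by number were 377, 354, 310 and 443. *PIM1* was lowest at number 4 in both groups, and *STAT3* was high at numbers 3 and 4.

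Depth moved with the number: the shallowest control was number 4 and the shallowest hLcn-2 sample number 3. The part of depth in these differences was not tested. With reads thinned to the lowest total, *STAT3* and *JAK1* were still called, and *SOCS2* was called in addition, and *PIM1* had an adjusted p of 0.0991. Without number 4, *IL21R* and *SOCS2* were called in addition, and the adjusted p of *PIM1* in limma was 0.977, and without number 3 that of *JAK1* was 0.186. No member was called without limma's intensity trend.

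Outside the 10 genes, *IL11*, a gp130 cytokine singled out after its values were seen, measured 29.9, 27.5, 1.8 and 16.5 in control and 22.9, 29.2, 2.0 and 13.5 in hLcn-2 (limma F test of the number, adjusted p = 2.39e-06). Number 3 was low for *IL11* in both groups.

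**Figure D4:**
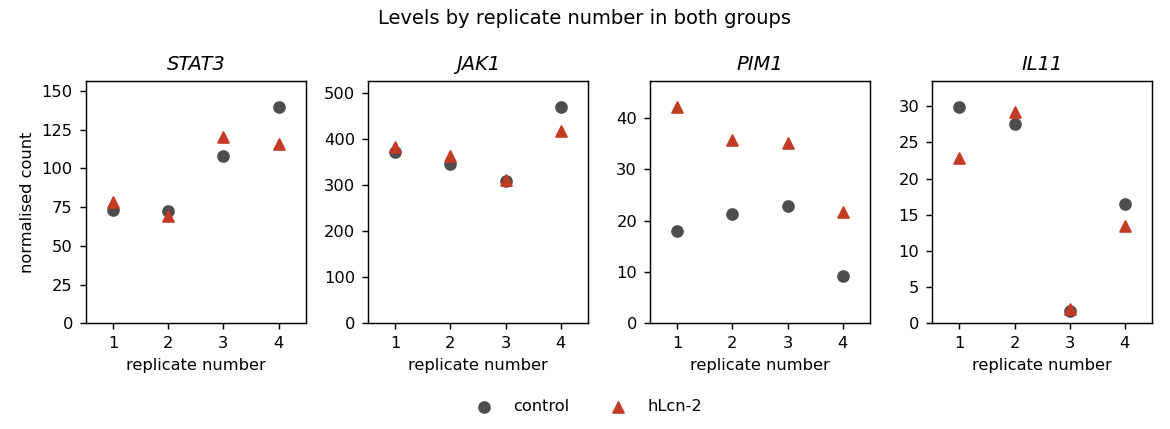
Normalised counts of *STAT3*, *JAK1*, *PIM1* and *IL11* by replicate number, with 1 marker per sample for control and hLcn-2 and a vertical axis from 0 in each panel. Both groups follow the number for *STAT3*, from 73.4 and 78.2 at number 1 to 139.6 and 115.5 at number 4.

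A wider list of 137 JAK-STAT genes, without the 10, had 94 measured and 92 tested. Of these 55 had a positive and 37 a negative log2 fold change, with a median of 0.032 beside 0.000826 over all 15593 genes. Without pairing limma called none, with 3 genes at an unadjusted p of 0.05 in limma, in edgeR and in DESeq2, beside the 355, 324 and 284 of all 15593 genes. With the replicate block limma called 2, where it called 0.282% of all genes, both higher with hLcn-2 and both STAT3 targets. *VEGFA*, the angiogenic growth factor, measured 110 ± 29.9 in control and 162 ± 27.5 in hLcn-2, a log2 fold change of 0.59 (SE 0.20) with a limma adjusted p of 1 without and 0.0251 with the block. *CEBPB*, an acute-phase transcription factor, measured 210 ± 34.1 and 309 ± 37.4, a log2 fold change of 0.56 (SE 0.15) with a limma adjusted p of 1 and 0.0317. Both genes were known to be higher in these samples from earlier results of these same data. The study's own list of changed genes holds *CEBPB* but not *VEGFA*. Both calls were absent when number 1, 2 or 3 was left out or with a pseudocount of 0.1. By replicate number 37 of the 92 differed in limma (40.2%, beside 27.4% of all genes).

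Among 24 tested receptors, 19 had a positive and 5 a negative log2 fold change (median 0.11), and none was called with the block. *IL13RA1*, the IL-13 receptor chain, measured 107 ± 5.06 in control and 129 ± 26.8 in hLcn-2 without overlap (limma adjusted p = 1 without and 0.311 with the block), and its log2 fold change of 0.25 was 0.11 without hLcn-2 1. *IFNGR1*, the interferon-gamma receptor chain, measured 21.3 ± 5.97 and 28.2 ± 3.36 (limma adjusted p = 0.206 with the block). *IL6R*, the IL-6 receptor, measured 22.6 ± 6.84 and 30.2 ± 10.7 (limma adjusted p = 0.282 with the block). Its log2 fold change of 0.39 was 0.18 without hLcn-2 3 alone, and number 3 was high in both groups (32.3 and 44.9). Its pair differences were 0.81, 0.079, 0.47 and 0.19. *IFNGR1* and *IL6R* were higher in all 4 pairs.

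Among 11 tested ligands, 8 had a positive and 3 a negative log2 fold change (median 0.083), and none was called with the block. *IL6* stayed low, at 2.95 ± 0.739 in control and 2.10 ± 1.71 in hLcn-2 (limma adjusted p = 1 without and 0.531 with the block), and its log2 fold change of -0.56 was -0.09 without hLcn-2 3 and -0.86 without hLcn-2 1. *EBI3*, a subunit of IL-27 and IL-35, had a log2 fold change of 0.46 (SE 0.45). This was 0.033 without control 4 alone and 0.22 without hLcn-2 1 alone, but 0.21 without pair 4 and 0.47 without pair 1. *IL23A*, a subunit of IL-23, had one of -0.51 (SE 0.34), which was -0.26 without hLcn-2 3 and -0.31 without control 4. The 8 other kinases and STATs had 5 positive and 3 negative values (median 0.027). *STAT6*, the IL-4 and IL-13 STAT, measured 87.6 ± 20.7 and 111 ± 19.3 and was higher in all 4 pairs (limma adjusted p = 0.23 with the block). *STAT5A* and *STAT5B*, used by gamma chain and growth hormone receptors, had log2 fold changes of 0.44 (SE 0.29) and 0.26 (SE 0.20), which were 0.18 and 0.10 without control 4. *JAK3*, the partner kinase of the gamma chain, measured 5.63 ± 3.25 and 4.90 ± 2.16 (limma adjusted p = 0.84 with the block). Its unpaired log2 fold change of -0.13 was 0.16 without control 3 and -0.33 without hLcn-2 3. Number 3 was high in both groups (10.4 and 7.41), and the pair differences were 0.23, -0.16, -0.44 and -0.17.

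The 17 negative regulators had 8 positive and 9 negative values (median -0.0014), and none was called with the block. *SOCS1*, a direct JAK inhibitor, had a log2 fold change of 0.48 (SE 0.48), which was 0.048 without control 4 and 0.74 without hLcn-2 3. *CBL*, a ubiquitin ligase for receptors, had one of -0.14 (SE 0.16), which was -0.067 without control 2 and -0.27 without hLcn-2 2. *PIAS3*, an inhibitor of STAT3 binding to DNA, had one of -0.43, which was -0.28 without hLcn-2 4. Among 21 STAT3 targets, 11 were positive and 10 negative (median 0.011). *FOS*, an immediate early gene singled out after its values were seen, measured 1.69, 1.5, 1.41 and 0.658 in control and 3.21, 2.39, 7.90 and 1.96 in hLcn-2, with 16 reads behind the highest and 1 behind the lowest value (limma adjusted p = 0.168 with the block). *BIRC5*, encoding survivin, was lower in all 4 pairs at 89.8 ± 42.8 and 70.1 ± 33.8 (limma adjusted p = 0.117 with the block). Its unpaired log2 fold change of -0.36 was 0.13 without hLcn-2 3 and -0.84 without control 3. The 11 PIM substrates had 4 positive and 7 negative values (median -0.048), and none was called with the block. The transcription factors *FOXO1* and *FOXO3* had log2 fold changes of -0.38 (SE 0.25) and -0.17 (SE 0.18). Without hLcn-2 4 that of *FOXO1* was -0.19, and without control 4 that of *FOXO3* was -0.041. The translation repressor *EIF4EBP1* had one of 0.34 (SE 0.33), which was -0.015 without control 3 alone. Number 3 was lowest in both groups (7.76 and 17.3), and the pair differences were -0.081, 0.015, 1.06 and 0.35.

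**Figure D5:**
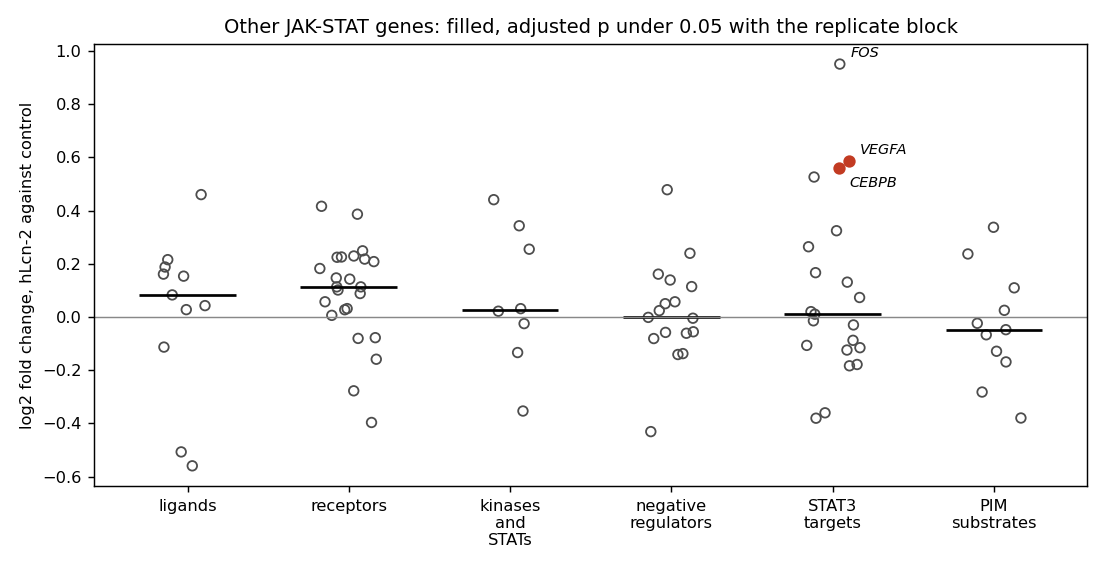
Log2 fold change of hLcn-2 against control, on the log2(normalised count + 1) scale, for the 92 tested genes of the wider list by role; each circle is a gene, the bar is the list's median, and filled circles passed limma with the replicate block. *VEGFA* (0.59) and *CEBPB* (0.56) are the filled circles, and the list medians lie between -0.048 and 0.11.

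Promoter sequences were read for the members that differed most, *IL21R* and *PIM1*, and for *CISH*, a STAT target that serves as an example holding the searched motif. RefSeq windows on GRCh38.p14, from 250 bases before to 50 after each start, matched 9 of the 10 members with 15 windows. *SOCS2* was not among them. TTCNNNGAA, the core that STAT dimers bind and that reads the same on both strands, was in 0 of these 9 members, in 4 copies in the *CISH* window, and in 7.66% of 35116 windows. TTGCATCA, a site type bound by C/EBP and ATF proteins, or its reverse complement TGATGCAA, was in 0.866% of windows and in that of *IL21R*, 118 bases before the start. The 250 bases before each start are given 5′ to 3′ on the gene's strand, at chr16:27427021-27427270 (plus), chr6:37169902-37170151 (plus) and chr3:50611775-50612024 (minus), with the matches in capitals. The RefSeq start of *IL21R* lies inside the longer gene span given above, so the start of that span was not searched. The 2 *SOCS3* windows, at 78360876 to 78361175 and 78359618 to 78359917, miss that gene's start at 78360077. The bases just before this *SOCS3* start were therefore not searched either. The motifs were searched with the expression values known, and a match is a description of these letters only.
IL21R: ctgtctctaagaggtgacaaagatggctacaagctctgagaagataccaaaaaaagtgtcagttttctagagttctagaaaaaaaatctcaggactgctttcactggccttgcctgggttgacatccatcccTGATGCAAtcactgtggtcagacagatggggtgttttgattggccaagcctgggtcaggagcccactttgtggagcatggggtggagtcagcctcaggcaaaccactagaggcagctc
PIM1: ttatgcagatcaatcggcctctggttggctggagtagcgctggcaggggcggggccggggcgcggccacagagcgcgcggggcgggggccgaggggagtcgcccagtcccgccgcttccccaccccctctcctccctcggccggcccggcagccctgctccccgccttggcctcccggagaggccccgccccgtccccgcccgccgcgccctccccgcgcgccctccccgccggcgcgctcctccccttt
CISH: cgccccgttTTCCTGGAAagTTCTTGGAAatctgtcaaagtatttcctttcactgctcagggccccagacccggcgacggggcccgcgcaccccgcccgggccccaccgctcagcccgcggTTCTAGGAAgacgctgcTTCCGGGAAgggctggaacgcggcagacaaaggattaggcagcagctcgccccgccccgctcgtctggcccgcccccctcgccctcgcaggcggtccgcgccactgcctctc

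*CISH*, which encodes an inhibitor of STAT5 signaling and was singled out after its values were seen, measured 5.3, 5.7, 13.0 and 8.6 in control and 8.1, 4.9, 16.8 and 10.4 in hLcn-2. It differed by replicate number (limma F test, adjusted p = 0.00763).

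The genes whose log2(normalised count + 1) ran most like that of *IL21R* over the 8 samples, among 9006 with a mean of at least 10, were *SPPL2A* (Pearson r = 0.971), *RBM14* (0.965), *SHMT2* (0.954), *UBE2J1* (0.941) and *IDH1* (0.932). Those most like *PIM1* were *IMPDH2* (0.972), *POLR2H* (0.971), *RNF146* (0.971), *CMTM6* (0.970) and *TRAM1* (0.968). The value for *IL21R* with *PIM1* was 0.717. These values are a description over 8 samples that share a treatment, replicate numbers and depth.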

How the data were processed

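CAKI1 RNA of 4 control and 4 hLcn-2 samples was sequenced with QuantSeq 3′ libraries carrying molecular identifiers. The deposited table holds a normalised signal per gene that the authors made; the submitters' processing notes name STAR, HTSeq, edgeR and GRCh38, without versions. Per the study's methods, reads were collapsed by molecular identifier after alignment. Whole reads were recovered for all 134256 values (tolerance 0.01 reads), and 1 value with a decimal comma was read as a decimal. How counting used strand is not given in the sources used here.

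The main test was limma 3.58.1 (R 4.3.3) with an intensity trend on log2(normalised count + 1), for 15593 genes of at least 1 in at least 2 samples, with Benjamini-Hochberg adjustment. The log2 scale understates the change of low genes. Alternatives were a block on replicate number, edgeR 4.0.16 and DESeq2 1.42.0 on recovered reads, other pseudocounts, filters and scalings, and left-out samples; scripts were tested on simulated data. Same-numbered samples deviated together (correlations 0.477, 0.590, 0.610 and 0.312), so numbers were taken to pair samples. The block uses this pairing and the main test leaves it out. Samples of different numbers were not correlated and depth moved with the number, so pairing by culture was not tested. *IL11*, *FOS* and *CISH* were named after their values were seen. Most other genes were named by rule: from each list the 3 with the smallest p in blocked limma, *IL21*, *IL2RG*, *JAK3*, *STAT5A* and *STAT5B*, and the 5 most correlated with *IL21R* and with *PIM1*. A further gene of this rule is not reported here. Members and lists were chosen with earlier results of these data known. Gene positions are from GENCODE 44.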

Additional observations from a re-analysis of the deposited data

Results flagged for a closer look

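In 60 groups of 4 samples, 4 held a sample whose gap to the nearest other sample as a share of the group's range exceeded Dixon's 95% critical value, where chance gives about 1 in 20. *IL21R* in hLcn-2 3 was low at a normalised count of 10.4, with a gap of 0.904 of the range. *IL6* in control 2 was high at 4.05, with a gap of 0.887. *IL13RA1* in hLcn-2 1 was high at 169.5, with a gap of 0.930. *STAT6* in hLcn-2 2 was low at 81.7, with a gap of 0.977.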

How the results depend on the processing

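Every hLcn-2 value of *IL21R* was above every control, so a log2 fold change above 0 in 25 of 25 settings was nearly fixed in advance. This log2 fold change ranged from 0.78 to 1.15 with all samples and from 0.95 to 1.23 with 1 sample left out. *PIM1* ranged from 0.74 to 0.95 and from 0.64 to 1.10. With a pair left out, *IL21R* ranged from 0.90 to 1.14 and *PIM1* from 0.82 to 1.02. Of all genes, limma without the block called 0. With the replicate block, limma called 34 higher and 10 lower, edgeR 175 and 58, limma with a pseudocount of 0.1 6 and 2, and limma on thinned reads 20 and 9. The blocked limma without numbers 1, 2, 3 and 4 called 13, 3, 0 and 43 higher and 1, 0, 0 and 15 lower, and leaving out 1 sample without the block called 0. In the wider list the block called 2 higher with limma, edgeR and thinned reads, and 0 to 2 with samples left out. The positive members numbered 5 in the main test, 6 in edgeR and in DESeq2, and 7 in blocked limma on thinned reads. With the filter of a mean of at least 10, they numbered 4 of 9. With samples left out they numbered 5 to 8. *JAK1*, *JAK2*, *TYK2*, *STAT3* and *PIM3*, all near 0, each changed sign when some single sample was left out. By number, 3 members and 4272 genes differed, 0 and 1294 without the intensity trend, and 2 to 4 and 895 to 5025 with a number left out. The thinned and reduced block settings were chosen after seeing the data. *IL21R* rested on as few as 8 reads in a sample and *SOCS2* on 3, and *IL6*, *EBI3*, *IL23A*, *STAT5A* and *SOCS1* each had a sample with 0.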
